A study of Mus musculus with 24 samples.

Results

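The nuclear-encoded subunits of respiratory complexes II to V and cytochrome c were described over the day in the hearts of Clock-mutant mice. Members were chosen by symbol alone: the succinate dehydrogenase subunits, every symbol that begins with Uqcr, Atp5 or one of the Cox4 to Cox8 stems, Cyc1 and Cycs. This gave 49 genes, measured by 59 array features, of 22180 genes that had a feature of their own. Complex II has 4 members, complex III 9 with Cyc1, complex IV 17 and complex V 18, and Cycs is cytochrome c. The set includes 2 pseudogenes, Uqcrh-ps1 and Atp5c1-ps. Cox6c and Uqcr10 are not members, because their features carry several symbols, and 0 of 6 mitochondrially encoded subunits of these complexes had a feature under 1 symbol.

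All 24 hearts came from male mice homozygous for Clock delta 19, at 8 weeks of age, kept in 12 h of light and 12 h of darkness. The delta 19 mutation leaves a CLOCK protein that lacks part of its transactivation region, and every group carries it, in all cells of the animal. Hearts with intact Clock are not analysed here, and no value below compares genotypes. Collection was every 4 h: ZT03, ZT07 and ZT11 with lights on, and ZT15, ZT19 and ZT23 with lights off. Zeitgeber time (ZT) is the hours since lights on, and 4 hearts were labelled as biological replicates at each time, with 1 array per heart. The question is which of these subunits differed between times of day.

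Electrons from succinate enter the chain at complex II and pass through ubiquinone to complex III, through cytochrome c to complex IV, and from there to oxygen. Complexes III and IV pump protons across the inner mitochondrial membrane, and complex V, the ATP synthase, makes ATP as protons flow back. Heart muscle relies on this chain for most of its ATP, and for several complex IV subunits it expresses a form specific to heart and skeletal muscle in place of, or beside, the form found in other tissues.

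Values were deposited on a log scale, taken here to be log2, with each feature centred on its own median over the 24 arrays. Every value below is thus a distance from that gene's median, not a level, and says nothing of which gene is the more abundant. The spacing of the numbers still shows which features exceeded 8 on that log scale before centring. At least 1 such feature was found for 28 of the 49 members (57.1%), against 461 of all 22180 genes (2.08%): 4 of 4 in complex II, 3 of 9 in complex III, Cycs, 10 of 17 in complex IV and 10 of 18 in complex V. Of the listed cardiomyocyte markers 7 of 10 were in this bright class, against 1 of 8 for fibroblast, 2 of 8 for endothelial and 0 of 8 for leukocyte markers. ZT11 replicate 1 stood apart over all genes, with an SD over genes of 0.149 where the other hearts had 0.0925 to 0.126.

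At ZT11, 7 of 49 members differed from ZT03 (14.3%), against 2.29% of all genes (limma's moderated test, Benjamini-Hochberg adjusted p under 0.05 over all genes). Both times are in the light phase. Cox7a1 and Cox4i1 of complex IV and Atp5e and Atp5k of complex V were higher at ZT11, 4 members where 0.451% of all genes were higher. Uqcrc2 of complex III and Atp5mpl and Atp5md of complex V were lower, 3 members where 1.83% of all genes were lower. In complex II, cytochrome c and the remaining members of complexes III to V, 0 passed. Among all 461 genes of the bright class 14.8% passed this contrast, so the members' share was close to that of bright genes as a class, and 5 of the 28 bright members passed (17.9%). The count of 7 was 3 without ZT03 replicate 1, 2 or 3, 4 without ZT11 replicate 1 or 2 and 2 without ZT11 replicate 3. At an unadjusted p under 0.05 the members' count was 19, against 14.5% of all genes and 214 of 461 bright genes. Complex I subunits, the neighbouring part of the chain, had 5 of 32 past the threshold, 4 higher and 1 lower. Over the members the difference ran from -0.35 to 0.55 with a median of 0.022, against a median of 0.0050 over all genes. These are extracts of heart tissue, in which fewer cells of a type and less RNA per cell cannot be told apart.

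**Figure D1:**
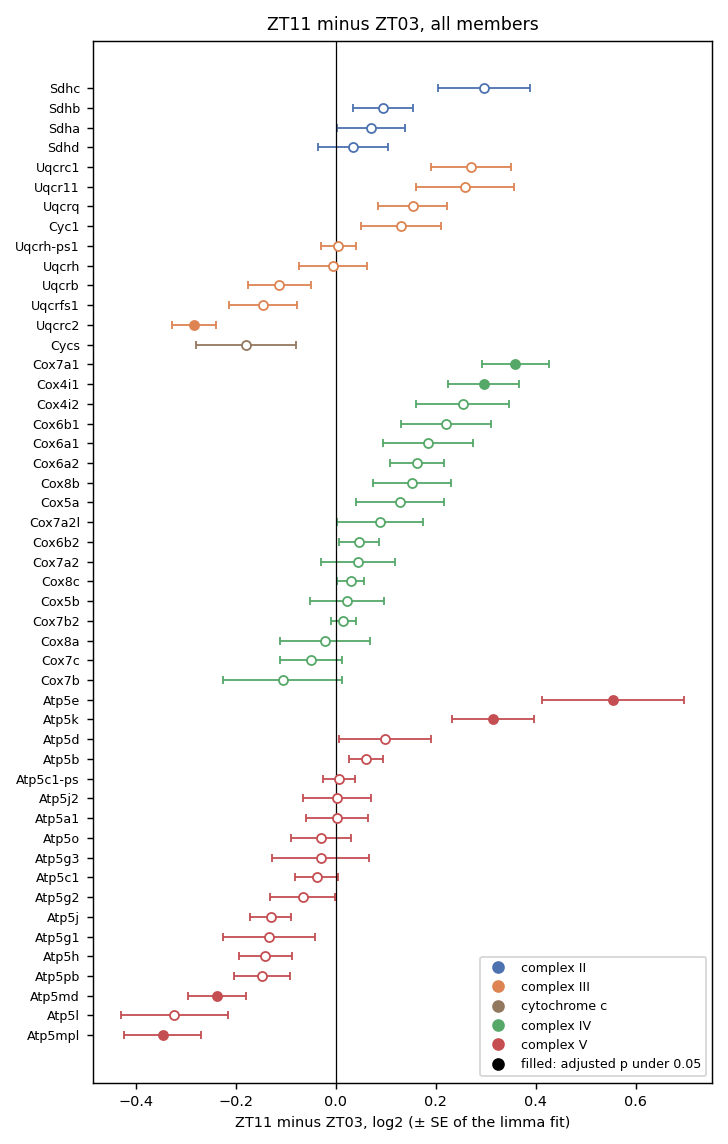
Difference ZT11 minus ZT03 for each of the 49 members on the log2 scale, ordered within complexes, with the SE of the limma fit as bars and members past an adjusted p of 0.05 marked. The 4 higher and 3 lower members lie on opposite sides of 0, from -0.35 for Atp5mpl to 0.55 for Atp5e.

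Sequence upstream of the start was at hand for Cox7a1, Atp5e, Atp5k and Atp5md, and is shown because these 4 are among the members that differed between ZT11 and ZT03. The windows hold the 250 bases before the annotated start in RefSeq, build GRCm38.p6, and are written 5′ to 3′ along the gene, with motif matches in capitals. The Atp5e and Atp5k windows each hold 1 match and the other pair none.
Cox7a1, chr7:30183921-30184170, plus strand: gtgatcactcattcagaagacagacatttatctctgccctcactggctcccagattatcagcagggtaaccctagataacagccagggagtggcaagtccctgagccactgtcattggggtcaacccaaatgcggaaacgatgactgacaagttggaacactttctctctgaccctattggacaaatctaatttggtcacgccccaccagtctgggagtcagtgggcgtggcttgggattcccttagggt
Atp5e, chr2:174464102-174464351, minus strand: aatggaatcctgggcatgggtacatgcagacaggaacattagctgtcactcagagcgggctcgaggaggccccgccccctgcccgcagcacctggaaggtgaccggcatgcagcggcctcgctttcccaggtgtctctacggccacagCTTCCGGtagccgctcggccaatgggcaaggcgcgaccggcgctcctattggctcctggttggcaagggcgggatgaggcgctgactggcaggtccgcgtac
Atp5k, chr5:108434400-108434649, minus strand: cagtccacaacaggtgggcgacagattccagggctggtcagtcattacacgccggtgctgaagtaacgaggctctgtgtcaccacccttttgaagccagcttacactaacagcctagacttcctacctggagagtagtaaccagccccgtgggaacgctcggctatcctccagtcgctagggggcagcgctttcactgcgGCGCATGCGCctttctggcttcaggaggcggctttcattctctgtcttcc
Atp5md, chr19:47090648-47090897, minus strand: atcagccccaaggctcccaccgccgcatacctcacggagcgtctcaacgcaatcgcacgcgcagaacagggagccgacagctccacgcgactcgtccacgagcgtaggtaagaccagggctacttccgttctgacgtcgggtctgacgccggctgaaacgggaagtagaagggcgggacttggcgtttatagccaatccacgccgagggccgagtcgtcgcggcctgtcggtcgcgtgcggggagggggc
Motifs were searched on both strands as exact letters: GCGC, any base and then TGCGC for NRF1, CCGGAAG for ETS factors, TNAAGGTCA for oestrogen-related receptors and the E-box CACGTG, which CLOCK and BMAL1 bind. The capitals mark an NRF1 match in Atp5k and an ETS match, read on the other strand, in Atp5e. Of 39 windows found for 36 members, 7 held the NRF1 letters, against 3.74% of all 32841 windows, and 9 held the ETS letters, against 6.91%. The E-box letters were in 4 member windows, of Atp5g1, Atp5g3, Atp5l and Atp5pb, against 6.02% of all windows. The receptor motif was in 1, of Atp5g3, against 1.14%. A match is a run of letters and not a shown binding site, and a window without one says nothing of the factor.

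Among complex III subunits, Uqcrc2, a core protein on the matrix side, had the smallest p-value of all members in the F test over time points and in ZT11 minus ZT03. Its values were 0.26, 0.17, 0.21 and 0.21 at ZT03, 0.053, 0.085, 0.11 and 0.090 at ZT07 and -0.12, -0.039, -0.15 and 0.035 at ZT11. In the dark phase they were 0.017, -0.025, -0.090 and -0.023 at ZT15, 0.069, -0.096, -0.017 and 0.14 at ZT19 and -0.045, -0.077, -0.034 and -0.11 at ZT23. Each ZT03 heart lay above every other heart, and the ZT07 hearts were all above 0. Uqcrc2 averaged -0.070 ± 0.085 at ZT11 and 0.21 ± 0.040 at ZT03 (SD, n = 4 each), a difference of -0.28 ± 0.044 (SE) with a limma adjusted p of 0.00339. It was also lower at ZT15 than at ZT03, with a difference of -0.24 ± 0.044 (adjusted p = 0.0169), and these contrasts share the ZT03 hearts. The F test over the 6 time points gave an adjusted p of 0.0151. With each heart left out in turn, the ZT11 difference passed in 24 of 24 fits. Without ZT03 replicate 3 the F test missed the threshold (adjusted p = 0.0509), as did ZT15 minus ZT03 without ZT03 replicate 3 (0.0582) or ZT15 replicate 3 (0.0530).

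Uqcrc1, the partner core protein, had an estimate of the opposite sign. It measured -0.36, -0.19, -0.31 and 0.0046 at ZT03, 0.055, -0.13, -0.21 and -0.12 at ZT07 and -0.0046, 0.13, 0.049 and 0.053 at ZT11. The later hearts read 0.040, 0.030, 0.039 and -0.043 at ZT15, -0.24, -0.072, 0.034 and -0.21 at ZT19 and 0.16, 0.034, 0.047 and -0.20 at ZT23. The ZT11 hearts sat near or above 0 and 3 of the ZT03 hearts well below it, while ZT03 replicate 4 fell among the ZT11 hearts. ZT11 minus ZT03 was 0.27 ± 0.079 and did not pass (adjusted p = 0.0774). Whether Uqcrc1 and Uqcrc2 differed from each other in this contrast was not tested.

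Uqcrfs1, the Rieske iron-sulphur protein, had values of 0.098, 0.019, 0.082 and 0.30 at ZT03, 0.097, 0.034, 0.084 and 0.0062 at ZT07 and -0.084, -0.027, -0.0062 and 0.032 at ZT11. At night the values were 0.074, 0.068, -0.30 and -0.15 at ZT15, -0.065, -0.024, -0.034 and 0.072 at ZT19 and -0.16, -0.14, -0.029 and -0.15 at ZT23. All hearts of ZT03 and ZT07 were above 0 and all of ZT23 below it. Light minus dark was 0.12 ± 0.039 (adjusted p = 0.214) and the F test gave 0.265, so neither passed. Over the 9 complex III members, 5 had an estimate above 0 for ZT11 minus ZT03 and 4 below, from -0.28 to 0.27. The small subunits Uqcr11 and Uqcrq joined the members whose ZT11 hearts all lay above all ZT03 hearts, without passing the test.

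In complex IV, Cox7a1, the muscle form of a small subunit that lies in the membrane, was higher at ZT11. Its values were -0.077, -0.19, -0.24 and -0.19 at ZT03, -0.059, -0.17, -0.30 and -0.28 at ZT07 and 0.34, 0.15, 0.22 and 0.025 at ZT11. The dark-phase hearts had 0.013, 0.13, 0.0025 and 0.013 at ZT15, 0.14, -0.036, -0.0025 and -0.17 at ZT19 and 0.056, 0.11, -0.015 and 0.12 at ZT23. All 4 ZT11 hearts were above 0, all 8 hearts of ZT03 and ZT07 below it, and ZT11 did not overlap with either. Cox7a1 averaged 0.18 ± 0.13 at ZT11 and -0.18 ± 0.070 at ZT03 (SD, n = 4 each), which differ by 0.36 ± 0.067 (SE, adjusted p = 0.00742). Its F test passed too (adjusted p = 0.0188). The ZT11 difference passed in 24 of 24 fits without 1 heart, and the F test in all but that without ZT03 replicate 3 (adjusted p = 0.0510).

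Cox4i1, the main form of the subunit at which ATP regulates the enzyme, followed a similar course. It had -0.19, -0.11, -0.29 and -0.021 at ZT03, 0.0042, -0.0023, -0.17 and -0.21 at ZT07 and 0.12, 0.14, 0.24 and 0.070 at ZT11. The remaining hearts had -0.0005, 0.056, 0.084 and 0.0005 at ZT15, -0.0029, 0.052, -0.23 and -0.22 at ZT19 and 0.19, 0.067, -0.062 and 0.066 at ZT23. ZT11 hearts were all above 0 and ZT03 hearts all below it. The means were 0.14 ± 0.070 at ZT11 and -0.15 ± 0.12 at ZT03 (SD, n = 4 each), and the difference of 0.30 ± 0.071 passed (adjusted p = 0.0295), while the F test did not (0.0981). The call was lost without ZT03 replicate 1 (adjusted p = 0.0776), 2 (0.0559) or 3 (0.122), and without ZT11 replicate 1 (0.0677), 2 (0.0559) or 3 (0.101).

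Cox7b, another small complex IV subunit, entered by rule for its light minus dark difference, 0.13 ± 0.069, which did not pass (adjusted p = 0.535). It had 0.29, 0.25, 0.31 and -0.37 at ZT03, 0.061, 0.053, 0.16 and 0.12 at ZT07 and 0.33, -0.053, -0.13 and -0.080 at ZT11. In the dark phase it had 0.013, 0.094, -0.0081 and -0.018 at ZT15, -0.17, -0.11, 0.042 and -0.0010 at ZT19 and -0.34, -0.046, -0.013 and -0.029 at ZT23. ZT03 replicate 4 was the lowest of all 24 hearts while the other ZT03 hearts were among the highest. Of the 17 complex IV members, 14 had an estimate above 0 for ZT11 minus ZT03. So did 11919 of all 22180 genes, 7 of 18 complex V members and 18 of 32 complex I subunits.

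Several complex IV subunits and subunit c of the ATP synthase come in pairs or triplets of forms, which allowed both forms to be read in the same hearts. For subunit 7A, ZT11 minus ZT03 was 0.36 ± 0.067 for the muscle form Cox7a1 and 0.045 ± 0.074 (adjusted p = 0.868) for Cox7a2, the form found in liver and elsewhere. Cox7a2 averaged 0.093 ± 0.14 at ZT11 and 0.048 ± 0.050 at ZT03. For subunit 6A the muscle form Cox6a2 had 0.16 ± 0.053 (adjusted p = 0.124), with 0.072 ± 0.093 at ZT11 and -0.090 ± 0.11 at ZT03. The liver form Cox6a1 had a similar estimate of 0.18 ± 0.089 (adjusted p = 0.356), with 0.053 ± 0.19 at ZT11 and -0.13 ± 0.18 at ZT03. Neither form of subunit 6A passed.

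For subunit 8, the muscle form Cox8b had 0.15 ± 0.078 (adjusted p = 0.392), from means of 0.11 ± 0.16 at ZT11 and -0.048 ± 0.080 at ZT03, and the common form Cox8a had -0.021 ± 0.089 (adjusted p = 0.959), from -0.017 ± 0.15 at ZT11 and 0.0041 ± 0.12 at ZT03. The time-point means of Cox8a lay between -0.033 and 0.038. For subunit 4, Cox4i2, known as the form induced by low oxygen and common in lung, had 0.25 ± 0.094 (adjusted p = 0.181), with 0.092 ± 0.14 at ZT11 and -0.16 ± 0.15 at ZT03. That estimate is close to the one of Cox4i1 but did not pass. The ATP synthase subunit c genes Atp5g1, Atp5g2 and Atp5g3, whose mature proteins are the same, had -0.13 ± 0.092, -0.066 ± 0.065 and -0.030 ± 0.097, with adjusted p-values of 0.584, 0.744 and 0.943. Atp5g1 averaged -0.11 ± 0.094 at ZT11 and 0.019 ± 0.020 at ZT03, Atp5g2 0.015 ± 0.058 at ZT11 and 0.081 ± 0.080 at ZT03, and Atp5g3 -0.020 ± 0.14 at ZT11 and 0.010 ± 0.17 at ZT03 (SD, n = 4 for every mean of these forms). Differences between the forms of a subunit were not tested.

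**Figure D2:**
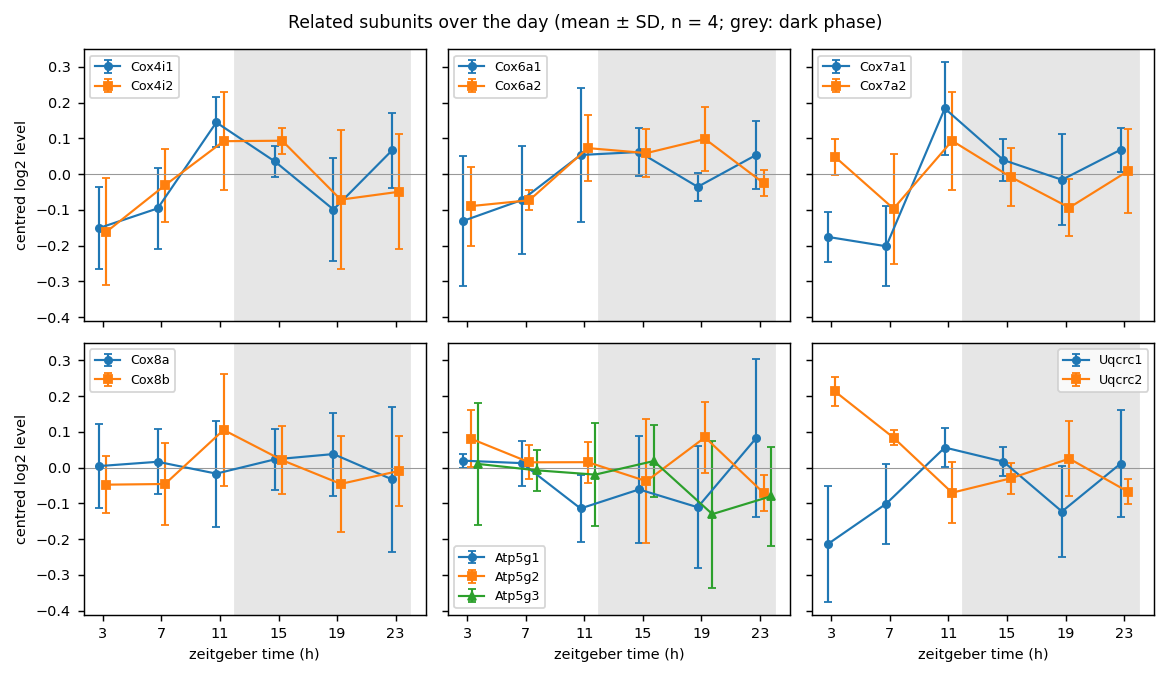
Time-point means of the forms of subunits 4, 6A, 7A, 8 and c on the log2 scale against zeitgeber time in hours, with the SD of 4 hearts as bars. The last panel shows Uqcrc1 and Uqcrc2, which are different subunits of complex III and not forms of the same one. Cox7a1 lies at 0.18 at ZT11 and -0.18 at ZT03, while Cox7a2 lies at 0.093 at ZT11 and 0.048 at ZT03.

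Complex V held 4 of the 7 members that differed between ZT11 and ZT03. Atp5mpl, a small proteolipid associated with the membrane part of the enzyme, had 0.49, 0.41, 0.24 and 0.33 at ZT03, 0.30, -0.019, 0.30 and 0.076 at ZT07 and 0.20, 0.083, -0.15 and -0.050 at ZT11. The values were 0.090, 0.026, -0.034 and -0.053 at ZT15, -0.051, -0.12, -0.12 and -0.013 at ZT19 and 0.013, -0.072, -0.046 and -0.21 at ZT23. ZT03 hearts were the highest group and did not overlap with ZT11, and ZT19 hearts were all below 0. Atp5mpl averaged 0.021 ± 0.15 at ZT11 and 0.37 ± 0.11 at ZT03 (SD, n = 4 each), a difference of -0.35 ± 0.076 (SE, adjusted p = 0.0191). The F test passed as well (adjusted p = 0.0184). The ZT11 call was lost without ZT03 replicate 1 (adjusted p = 0.0660), ZT03 replicate 2 (0.0615) or ZT11 replicate 3 (0.0754), and the F test without ZT03 replicate 1 or 2 (0.0521 each).

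Atp5md, which helps ATP synthase form dimers in the membrane, ran the same way with smaller differences. Its values were 0.20, 0.17, 0.28 and 0.22 at ZT03, 0.22, 0.0003, 0.047 and -0.092 at ZT07 and 0.063, 0.041, -0.11 and -0.059 at ZT11. Later hearts had 0.054, -0.0067, -0.10 and -0.0003 at ZT15, -0.071, -0.086, -0.074 and 0.013 at ZT19 and 0.035, -0.045, -0.072 and -0.19 at ZT23. All ZT03 hearts lay above all ZT11 hearts, and of the other times only ZT07 replicate 1 reached the ZT03 range. Atp5md averaged -0.017 ± 0.083 at ZT11 and 0.22 ± 0.046 at ZT03 (SD, n = 4 each), with a difference of -0.24 ± 0.057 (SE, adjusted p = 0.0312) and an F test at 0.0466. The ZT11 call was lost without ZT03 replicate 1 (adjusted p = 0.0615), 2 (0.0538), 3 (0.111) or 4 (0.0513), and without ZT11 replicate 3 (0.113) or 4 (0.0552). The F test passed in 6 of 24 fits without 1 heart, those without ZT07 replicate 1 or 4, ZT11 replicate 1 or 4, ZT15 replicate 1 and ZT23 replicate 1. In the others its adjusted p was 0.0501 to 0.172, the highest without ZT03 replicate 3. It also missed with robust eBayes (0.0515) and without ZT11 replicate 1 and ZT19 replicate 2 together (0.0666).

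Atp5e, the epsilon subunit of the stalk, was the member with the largest estimate. It measured -0.023, -0.25, -0.31 and -0.31 at ZT03, -0.13, -0.11, -0.35 and -0.099 at ZT07 and 0.695, 0.43, 0.19 and 0.0089 at ZT11. The dark-phase values were 0.095, 0.27, 0.015 and 0.072 at ZT15, 0.42, 0.070, -0.024 and -0.42 at ZT19 and 0.023, 0.075, -0.13 and 0.22 at ZT23. ZT11 hearts were all above 0 but far apart, ZT03 and ZT07 hearts were all below 0, and ZT19 hearts spanned both. Atp5e averaged 0.33 ± 0.30 at ZT11 and -0.23 ± 0.14 at ZT03 (SD, n = 4 each), a difference of 0.55 ± 0.14 (SE, adjusted p = 0.0423). Its 2 features gave 0.69 and 0.42, neither of which passed alone (adjusted p = 0.104 and 0.0555), and the call held in 11 of 24 fits without 1 heart. It was lost without ZT03 replicate 2 (adjusted p = 0.107), 3 (0.129) or 4 (0.0807), without ZT11 replicate 1 (0.164), 2 (0.0970) or 3 (0.0624), and by little, at 0.0506 to 0.0535, without ZT07 replicate 1, 2 or 4, ZT15 replicate 1 or 4, ZT19 replicate 3 or ZT23 replicate 2. Without ZT11 replicate 1 and ZT19 replicate 2 together the difference was 0.43 (adjusted p = 0.178), and after quantile normalization it was 0.49 (0.0885).

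Atp5k, subunit e of the membrane part, had -0.12, -0.0095, -0.21 and -0.34 at ZT03, 0.17, -0.057, -0.11 and -0.12 at ZT07 and 0.22, 0.16, 0.12 and 0.076 at ZT11. Night values were 0.064, 0.030, 0.15 and 0.056 at ZT15, -0.13, -0.016, -0.031 and -0.046 at ZT19 and 0.41, 0.15, 0.0095 and -0.058 at ZT23. ZT03 and ZT19 hearts were all below 0 and ZT11 and ZT15 hearts all above it. Atp5k averaged 0.14 ± 0.061 at ZT11 and -0.17 ± 0.14 at ZT03 (SD, n = 4 each), and the difference of 0.31 ± 0.083 (SE) was close to the threshold (adjusted p = 0.0471). It passed in 6 of 24 fits without 1 heart, those without ZT03 replicate 2, ZT07 replicate 1, ZT11 replicate 4 and ZT23 replicates 1, 3 and 4, while the others gave up to 0.145, without ZT11 replicate 1. It also missed after quantile normalization (adjusted p = 0.0554), with each array centred on its median (0.0501), with array weights (0.0565), with robust eBayes (0.0507) and without ZT11 replicate 1 and ZT19 replicate 2 together (0.159). Estimates were small for the alpha and beta subunits of the catalytic core. They were small as well for the subunit c genes Atp5g2 (-0.066) and Atp5g3 (-0.030), and parts of the enzyme were not tested against each other. The alpha subunit Atp5a1 gave 0.0017 ± 0.062 and the beta subunit Atp5b 0.060 ± 0.035 for ZT11 minus ZT03 (adjusted p = 0.997 and 0.471). Atp5l, subunit g of the membrane part, had an estimate of -0.32 ± 0.11, nearly that of Atp5mpl, with a wider spread, and did not pass (adjusted p = 0.13). Atp5a1, Atp5b and Atp5l were chosen after their values were seen.

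**Figure D3:**
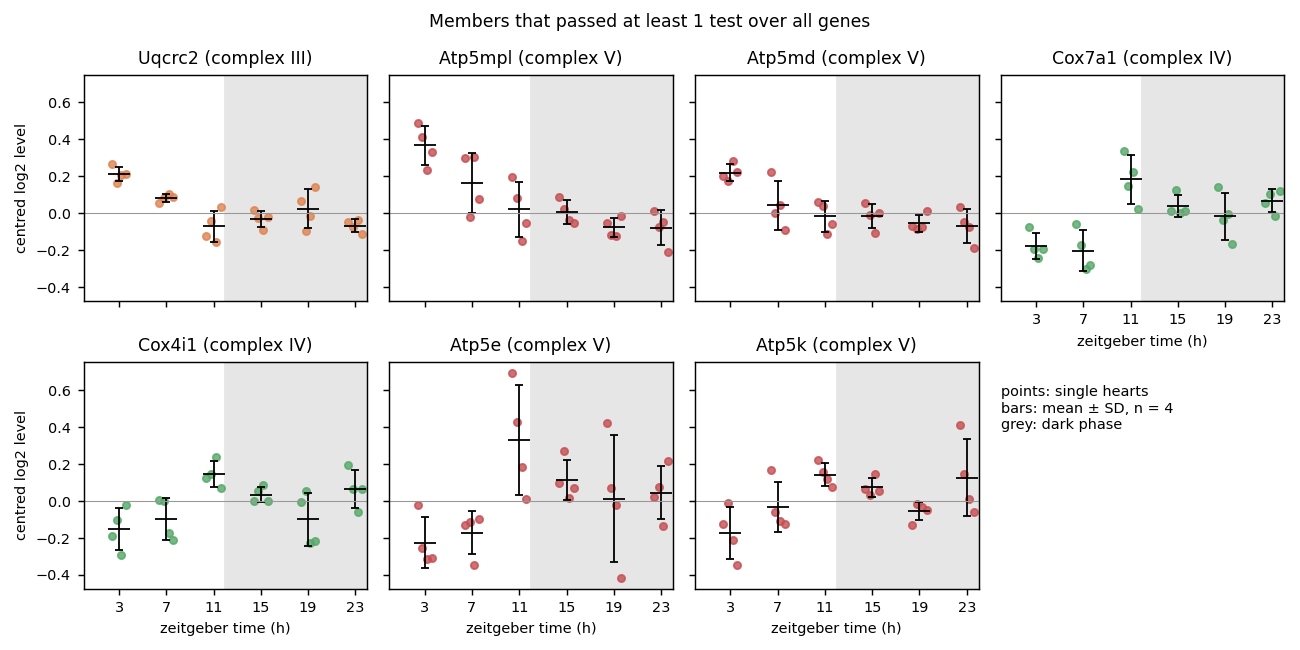
Values of the 7 members that differed between ZT11 and ZT03, 1 point per heart on the log2 scale against zeitgeber time in hours, with a bar at each time-point mean. Uqcrc2, Atp5mpl and Atp5md are highest at ZT03, and Cox7a1, Cox4i1, Atp5e and Atp5k have their highest mean at ZT11.

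Complex II had 4 members and 0 passed a limma test, while 2 had an unadjusted p under 0.05 in the F test, against 13.4% of all genes. These were Sdhd (adjusted p = 0.166) and Sdhc (0.208), which together anchor the enzyme in the membrane and bind ubiquinone. Over all tests Sdhc came nearest, in ZT15 minus ZT03. Sdhc had -0.21, -0.35, -0.19 and -0.38 at ZT03, -0.17, 0.0041, -0.0038 and 0.16 at ZT07 and 0.18, -0.11, 0.040 and -0.061 at ZT11. At night Sdhc had -0.058, 0.0038, 0.014 and 0.26 at ZT15, -0.16, 0.056, 0.089 and -0.17 at ZT19 and -0.14, 0.038, 0.030 and 0.27 at ZT23. Each ZT03 heart was below every heart of the other times. ZT11 minus ZT03 was 0.30 ± 0.092 (adjusted p = 0.0986) and ZT15 minus ZT03 was 0.34 ± 0.092 (0.0763), sharing the ZT03 hearts.

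Sdhd measured 0.21, -0.015, 0.0047 and 0.076 at ZT03, 0.12, -0.0047, -0.042 and -0.17 at ZT07 and 0.069, 0.21, 0.047 and 0.085 at ZT11. It had 0.015, -0.23, -0.19 and -0.30 at ZT15, -0.073, 0.041, -0.055 and 0.097 at ZT19 and 0.032, -0.12, -0.18 and -0.065 at ZT23. ZT11 hearts were all above 0, and 3 of 4 ZT15 hearts were among the lowest. Its light minus dark difference was 0.14 ± 0.040 (adjusted p = 0.161) and ZT15 minus ZT03 was -0.25 ± 0.070 (0.0932). Both anchors thus missed the threshold, with ZT15 minus ZT03 estimates of opposite sign.

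Cycs, the mobile carrier between complexes III and IV, was read by 5 features, 2 of which held identical values. Their average was 0.36, 0.34, 0.20 and -0.12 at ZT03, -0.036, -0.069, 0.18 and 0.14 at ZT07 and 0.33, -0.032, -0.0040 and -0.23 at ZT11. It was 0.0086, 0.11, -0.044 and 0.069 at ZT15, -0.017, -0.21, -0.076 and -0.032 at ZT19 and -0.13, 0.0026, -0.0064 and 0.034 at ZT23. The ZT03 and ZT11 hearts each spanned both sides of 0 widely, and none of the tests passed in limma, with 0 at an unadjusted p under 0.05 (F test adjusted p = 0.603). The features ranged from -0.34 to -0.0020 for ZT11 minus ZT03.

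Counted by hearts that do not overlap, 7 members had all ZT11 hearts above all ZT03 hearts, 14.3% against 3.47% of all genes. These were Atp5e, Atp5k, Cox4i1, Cox7a1, Sdhc, Uqcr11 and Uqcrq. Another 4, Atp5j, Atp5md, Atp5mpl and Uqcrc2, had all ZT11 hearts below all ZT03 hearts, 8.16% against 4.62%. Against the same ZT03 hearts, ZT15 hearts were entirely above for 7 members, against 3.41% of all genes, and entirely below for 4, against 4.62%. Cox4i2 stood in the higher group at ZT15 in place of Uqcr11, and the lower group held the same 4 genes. Shares without overlap were not computed for the bright class or complex I, so these counts are set against all genes only.

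Across all 6 time points, 4 of 49 members differed by the F test (8.16%), Uqcrc2, Cox7a1, Atp5mpl and Atp5md, against 1.48% of all genes and 8.89% of the bright class. Of these 4, 3 had their highest mean at ZT03, as did 197 of the 329 genes that passed, which are 0.888% of all genes. Complex I had 3 of 32. At an unadjusted p under 0.05 the members' count was 17, against 13.4% of all genes and 200 of 461 bright genes. The count of 4 dropped to 2 without ZT03 replicate 1 or 2 and to 1 without ZT03 replicate 3. The largest gap between time-point means ran from 0.033 to 0.55 over the members, with a median of 0.19, against a median of 0.12 over all genes. The bright class had a like median of 0.19 and complex I one of 0.20. The median SD within time points was 0.101 for the members and 0.0869 for all genes.

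With a 24 h cosine, 0 of 49 members passed in limma, against 0.0631% of all genes, and 11 had an unadjusted p under 0.05, against 10.8%. In the bright class 126 of 461 genes had such a p. Cox6a2 had the smallest adjusted p, 0.132, with an amplitude of 0.097 and a fitted peak at ZT15.8. Atp5e had the largest amplitude, 0.19 (adjusted p = 0.374). Only 1 cycle was sampled, so the cosine describes a profile and cannot show that it repeats.

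In the light minus dark contrast 1 member passed, Atp5mpl, at 0.23 ± 0.044 (SE, adjusted p = 0.0193), higher in light, against 0.379% of all genes passing and 0.243% higher. In the bright class 2.6% passed, against 2.04% of the members. The Atp5mpl call held in 24 of 24 fits without 1 heart. Without ZT19 replicate 4, Uqcrc2 passed too, for a count of 2. The unadjusted count was 12, against 10.5% of all genes and 135 of 461 bright genes. At ZT15 against ZT03, 2 members were lower, Uqcrc2 and Atp5mpl, against 1.08% of all genes passing and 0.879% lower. Of the bright class 6.29% passed this contrast, against 4.08% of the members. The unadjusted count there was 17, against 13% of all genes and 166 of 461 bright genes. Atp5mpl averaged 0.0071 ± 0.065 at ZT15 and 0.37 ± 0.11 at ZT03 (SD, n = 4 each), a difference of -0.36 ± 0.076 (SE, adjusted p = 0.0272). Its call was lost, at 0.0556 to 0.0826, without ZT03 replicate 1, 2 or 3 or ZT15 replicate 2, 3 or 4. Uqcrc2 averaged -0.030 ± 0.044 at ZT15 and 0.21 ± 0.040 at ZT03. Atp5md lay at the threshold without passing, at -0.23 ± 0.057. The ZT15 count was 1 without ZT03 replicate 1 or 2 or ZT15 replicate 2 or 4, 0 without ZT03 replicate 3 or ZT15 replicate 3, and 5 without ZT15 replicate 1.

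**Figure D4:**
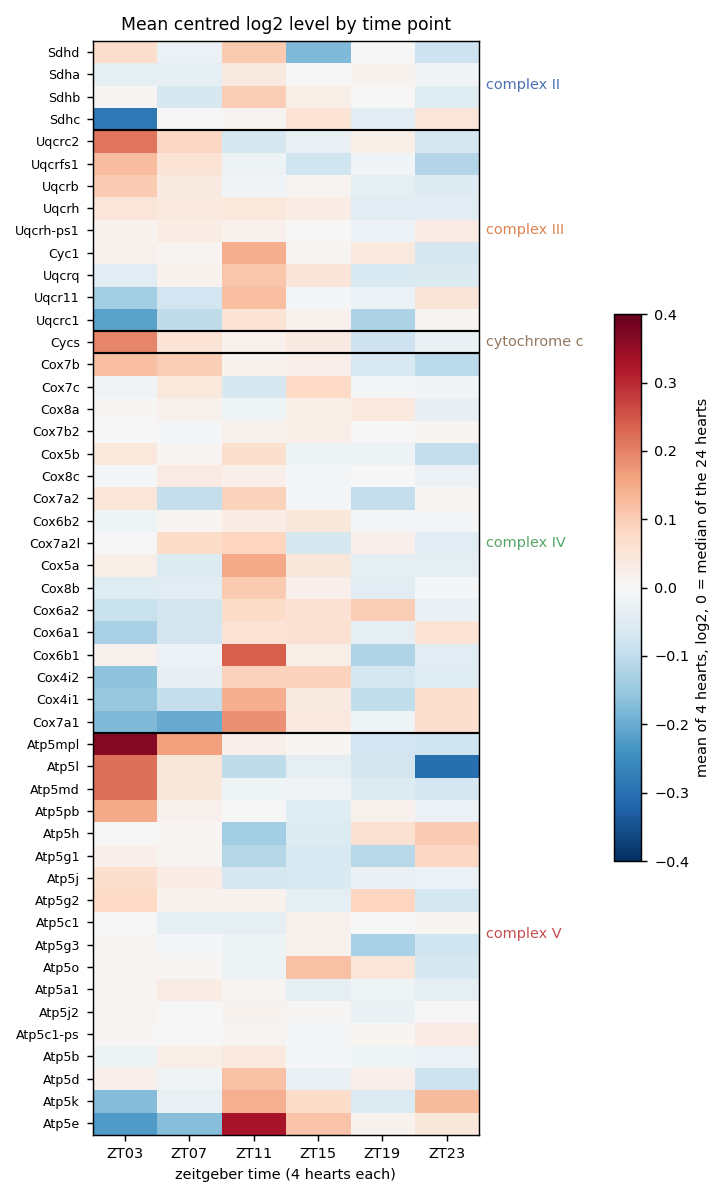
Time-point means of all 49 members as colours on the log2 scale, rows grouped by complex and columns in zeitgeber time. The ZT03 column holds the highest mean of 11 rows and the lowest of 12, and 20 of 49 rows have their highest mean at ZT11.

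Between ZT19 and ZT07, 0 of 49 members passed in limma, against 0% of all genes, and 3 had an unadjusted p under 0.05, against 5.58%. Between ZT23 and ZT11, 0 passed, again against 0% of all genes. An unadjusted p under 0.05 was found for 10 members, against 7.34% of all genes and 74 of 461 bright genes. Of these 10, 8 had an estimate below 0, against 3.62% of all genes: Sdhb, Sdhd, Cyc1, Uqcrq, Cox5a, Cox5b, Cox6b1 and Atp5d. Atp5g1 and Atp5h had one above 0, against 3.72%. Of all members, Atp5h had the smallest p in this contrast, at 0.24 ± 0.053 (SE, limma adjusted p = 0.143). All ZT23 hearts lay below all ZT11 hearts for 3 members, Sdhb, Sdhd and Cox6b1, where 1.62% of all genes did so. That share was not computed for the bright class.

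The sign of that estimate leaned one way. ZT23 minus ZT11 was below 0 for 39 of 49 members with a median of -0.061, against 11175 of 22180 genes with a median of -0.0004. By complex, the count below 0 was 3 of 4 in II, 7 of 9 in III, 15 of 17 in IV and 13 of 18 in V, and Cycs was below 0 too. In complex I it was 26 of 32, and among all bright genes 282 of 461. The members' count stayed between 37 and 41 over 31 settings, which included each heart left out in turn. Members above their own median numbered 27, 29, 14 and 14 of 49 in the ZT23 hearts and 33, 33, 32 and 25 in the ZT11 hearts. The low hearts of ZT23 were thus replicates 3 and 4. No setting left out both, so the range of 37 to 41 cannot show how far the count rests on them. Hearts of 1 time also differed elsewhere, from 19 to 37 at ZT15, so the signs of the members are not independent of each other. Single members did not pass, and no test was made of the set. The highest mean fell at ZT11 for 20 members (40.8%), against 18.5% of all genes, and for 11 at ZT03 (22.4%), against 17.3%. The lowest mean fell at ZT23 for 15 (30.6%), against 15.5% of all genes, and at ZT03 for 12 (24.5%), against 21.5%. Shares of highest and lowest means were not computed for the bright class or complex I. Over the same settings the count highest at ZT11 ran from 16, without ZT11 replicate 2, to 25, without ZT11 replicate 4, and the count lowest at ZT23 from 11, without ZT15 replicate 1, to 22, without ZT23 replicate 1.

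Within a heart, the members were most spread at ZT03. The SD over the 49 members was 0.158, 0.157, 0.162 and 0.171 in the ZT03 hearts and 0.169 in ZT11 replicate 1, against 0.0731 to 0.138 in the other 19 hearts. Over all genes the SD of the ZT03 hearts was 0.104, 0.0979, 0.112 and 0.112, inside the range of the others. The SD within a heart was not computed for the bright class or complex I, so the wide spread may not be particular to the members. ZT23 replicate 4 had the lowest of 24 values for 10 members and the highest for 2, together 24.5% of members, against 12.4% of all genes. ZT03 replicate 4 had 20.4%, against 9.72%, and ZT11 replicate 1 had 14.3%, against 16.2%.

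**Figure D5:**
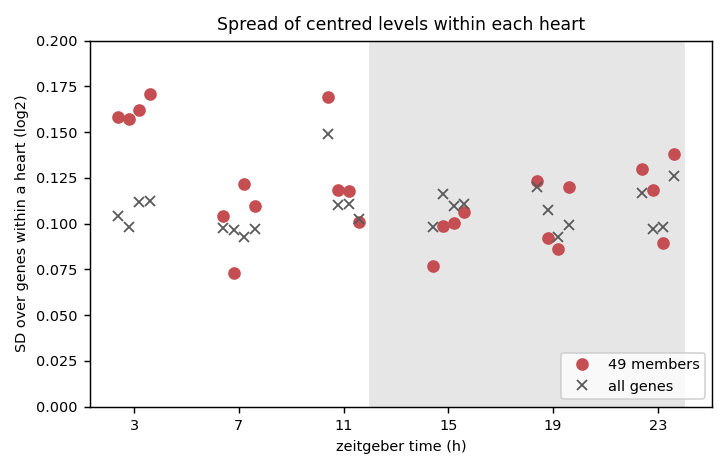
SD over the 49 members and over all 22180 genes in each of the 24 hearts on the log2 scale, hearts grouped by zeitgeber time. The 4 ZT03 hearts, at 0.157 to 0.171, and ZT11 replicate 1, at 0.169, are the most spread over the members.

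Several features of 1 gene did not always read alike. For Atp5d, the delta subunit, chosen after its values were seen, ZT11 minus ZT03 was 0.33 for the bright-class feature, which passed when features were tested singly (adjusted p = 0.0487), and -0.13 for the other (0.682), and their average did not pass. For Cox7b, Cox5b, Atp5h and Atp5g2 the features had the same sign in this contrast.

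Of 56 measured assembly factors, inhibitors and regulators of mitochondrial gene expression, 2 differed over the 6 time points, where 1.48% of all genes did, and 5 between ZT11 and ZT03, where 2.29% did. All 5 were lower at ZT11, as were 407 of the 507 genes called in that contrast. Tmem242, an assembly factor of ATP synthase, was lower by the widest margin, at -0.44 ± 0.07 (SE, adjusted p = 0.00425, F test 0.0181). Aifm1, a flavoprotein of the space between the mitochondrial membranes, had -0.34 ± 0.07 (adjusted p = 0.0149). Tfb2m, a mitochondrial transcription factor, had -0.25 ± 0.05 (0.0190). Hccs, which attaches haem to cytochrome c, had -0.32 ± 0.08 (0.0271), and Coa5, a complex IV assembly factor, -0.29 ± 0.08 (0.0431).

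At ZT15 against ZT03, Tmem242 (-0.37 ± 0.07, adjusted p = 0.0238) and the complex IV factor Coa3 (-0.26 ± 0.06, 0.0400) were lower, and the complex III factor Uqcc2 was higher (0.28 ± 0.06, 0.0382). Coa3 also passed the F test (0.0448). In the 24 h, light minus dark, ZT19 minus ZT07 and ZT23 minus ZT11 tests 0 of the 56 passed in limma, with 13, 11, 4 and 6 at an unadjusted p under 0.05, against 10.8%, 10.5%, 5.58% and 7.34% of all genes. The lists with no member past the F test had their smallest adjusted p in Sdhaf3 (0.518) for complex II assembly and Uqcc2 (0.0920) for complex III assembly. Among regulators it was in Tfb1m (0.0816), and in the list of Hccs, Aifm1, Gfer and Chchd4 it was in Aifm1 (0.0534).

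Some markers of cell types also differed between ZT11 and ZT03, a contrast that 2.29% of all genes and 14.8% of the bright class passed. The mean of the fibroblast list, in hearts from lowest to highest, was -0.12 to 0.13 at ZT11 and 0.028 to 0.17 at ZT03, and 1 of 8, Dcn, passed and was lower at ZT11. Cardiomyocyte markers ran from -0.028 to 0.18 at ZT11 and from -0.14 to 0.045 at ZT03, with 1 of 10, Tnni3, higher. Skeletal muscle markers ran from -0.022 to 0.076 at ZT11 and from -0.19 to -0.0063 at ZT03, with 1 of 8, Ckm, higher, a gene that heart muscle expresses as well. Endothelial markers ran from -0.11 to 0.052 at ZT11 and from -0.036 to 0.084 at ZT03, with 1 of 8, Emcn, lower. For the leukocyte, adipocyte, smooth muscle, nerve and erythrocyte lists 0 measured markers passed this contrast. Of the erythrocyte list only 1 of 7 was measured, and of the nerve list 4 of 6. Centred values cannot show a marker at 0, and the part of these lists in the members' differences was not tested.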

How the data were processed

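RNA from 24 hearts, 4 at each of 6 times, was hybridised to arrays of 1 colour. Per the labels' protocols, RNA of frozen hearts was extracted with TRIzol and made into biotinylated cRNA by the Affymetrix procedure. The authors deposited log-scale values centred on each feature's median over the arrays, read here as log2; the base, the summarization and the normalization are not given in the sources used here, and sizes would be 1.443 times larger with a natural log. Centring removed signal over background, so no filter on dim features could be set, and the number of arrays limits the precision.

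Of 34351 features, 23521 with 1 symbol in the platform annotation were used, and 1814 with several and 9016 with none were not. The mean of a gene's features was taken, which matters for 7 members. All 22180 genes were fitted with limma 3.58.1 in R 4.3.3, with 6 time-point means or a cosine and sine pair of 24 h, and Benjamini-Hochberg adjustment over all genes at 0.05. Scripts were tested on simulated data. No 2 arrays were identical. P-values measure the spread between hearts labelled as biological replicates.

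The members, gene lists and tests were chosen with earlier results of these data known. Per-heart values are given for members that passed a test and, in each complex, for the 2 with the smallest F-test p and the 1 with the largest light minus dark difference; isoforms are given by means. Of related genes, those that passed are named, or else the 1 with the smallest p in a list. Alternatives were a replicate block, quantile normalization, median centring, array weights, robust eBayes, features with several symbols, features tested singly, each heart left out, and ZT11 replicate 1 and ZT19 replicate 2 left out together. ZT19 replicate 2 did not stand apart over all genes, with an SD of 0.107 and an array weight of 0.961. The counts of directions and of highest and lowest means were added, with their alternatives, after the values were seen. Correlations of same-numbered hearts were taken over all genes after removal of time-point means. They ran from -0.233 to 0.232, with 4 of 15 pairs over 0.1 for numbers 1 and 4 each and 0 for the others. The main fits did not treat the hearts as paired. Whether same-numbered hearts share an effect was not tested.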

Additional observations from a re-analysis of the deposited data

Results flagged for a closer look

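Among 132 sets of 4 hearts, 22 named members at 6 times, 8 had a heart far from the other 3 by Dixon's criterion; chance gives about 1 in 20. Cox7b appeared in 2 of them. At ZT03 replicate 4 it was -0.37 where the other hearts lay between 0.25 and 0.31, and at ZT23 replicate 1 it was -0.34 where the others lay between -0.046 and -0.013. Atp5e at ZT07 replicate 3 was -0.35, against -0.13 to -0.099 in the others. Cox4i2 at ZT19 replicate 3 was 0.22, against -0.19 to -0.15. Cox7a1 at ZT15 replicate 2 was 0.13, against 0.0025 to 0.013. Atp5md at ZT19 replicate 4 was 0.013, against -0.086 to -0.071. Uqcrc1 at ZT15 replicate 4 was -0.043, against 0.030 to 0.040, and Uqcrfs1 at ZT23 replicate 3 was -0.029, against -0.16 to -0.14. In the last 4 sets the distance is small and the other 3 hearts lie close together. No heart occurs more than once in the list.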

How the results depend on the processing

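The count of members between ZT11 and ZT03, 7, ran from 5 to 8 under the settings that kept all hearts, and was 4 without ZT11 replicate 1 and ZT19 replicate 2 together, where Atp5e, Atp5k and Cox4i1 missed. Leaving out 1 heart gave 2 to 7: 3 without ZT03 replicate 1, 2 or 3, 4 without ZT11 replicate 1 or 2, and 2 without ZT11 replicate 3, with Uqcrc2 and Cox7a1 past the threshold each time. The F-test count of 4 ran from 1 to 5 without 1 heart. ZT15 minus ZT03, at 2, was 5 with array weights and 4 with features of several symbols, and 0 to 5 without 1 heart. Light minus dark, at 1, was 2 with features of several symbols, which added Cox6c, and 1 to 2 without 1 heart. The 24 h, ZT19 minus ZT07 and ZT23 minus ZT11 counts were 0 under each setting run. With the replicate block the counts were 4 for the F test, 0 for the cosine and 1 for light minus dark. They were 3, 0 and 0 for the pairs 12 h apart in the order of their earlier time, and 7 for ZT11 minus ZT03. After removal of time-point means, 10 of 24 hearts correlated best, among hearts of other times, with one of their own number. The count that chance gives was not computed. Of 140 results of named members that did not pass, recomputed 4480 times in all, 18 values passed and 97, in 27 results, had the other sign. The 4 hearts per time and the unknown signal over background limit what can be detected. The cause of these shifts was not tested.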

Other observations

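Cox6c, a complex IV subunit whose feature also carries the symbol of a gene model and which is thus uncertain, averaged -0.027 at ZT11 and 0.18 at ZT03, a difference of -0.20 with a limma adjusted p of 0.00414. It was lower at ZT15 than at ZT03 as well, with a difference of -0.19 (adjusted p = 0.0139), and higher in light than in dark, with a difference of 0.096 (0.0308), and its F test passed (0.0146). Uqcr10, a small complex III subunit measured in the same uncertain way, had a ZT11 minus ZT03 estimate of 0.086 (adjusted p = 0.787) and passed 0 tests.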
